A study of Homo sapiens with 3 samples.

Results

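G2 and mitosis genes encode the proteins that carry a cell from replicated DNA through chromosome segregation to division. The 40 genes described here are a fixed list of such genes, chosen by symbol and by what their products do, with earlier results of these data known. All 40 were found among the 36601 genes counted. They were measured in OVCAR3, a long-used human line of serous ovarian carcinoma of high grade, by single-cell RNA sequencing in which captured molecules near the 3′ end of each mRNA are counted as unique molecular identifiers (UMIs). There were 3 libraries, all after 48 hours: DMSO as the vehicle control, 50 μM RAC1i, and Combo, which was 50 μM RAC1i with 5 μM EZH2i. NSC23766 served as RAC1i and keeps the GTPase RAC1 from being switched on, and GSK126 served as EZH2i and inhibits EZH2, which methylates histone H3. Every condition had 1 library of the same cell line, so no test between conditions was possible and no spread between cultures is known. EZH2i alone was not analysed here, so the values of Combo cannot be divided between its inhibitors except by setting Combo beside RAC1i.

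Entry into mitosis is driven by CDK1 bound to cyclin A or cyclin B, and the spindle is then built by motor proteins and microtubule-binding proteins under the control of the kinases PLK1, AURKA and AURKB. The spindle checkpoint holds the anaphase-promoting complex (APC/C) back until chromosomes are attached, after which the APC/C marks securin and cyclin B for destruction and the cell divides. Transcripts of many of these genes rise together late in the cycle, through promoter elements called the CCAAT box and the cell cycle homology region (CHR), which are bound by NF-Y and by complexes that hold MYBL2 and FOXM1.

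The limits on cells were more than 1000 genes, no more than 20% of UMIs from mitochondrial genes and complexity above 0.8, which left 7531 cells for DMSO, 10215 for RAC1i and 8239 for Combo. These held 199063947, 234969742 and 212792113 UMIs, and a level is given as CPM, the UMIs of a gene scaled to a library total of 1e6, with a 95% interval that covers counting error only. A kept cell had a median mitochondrial share of 5.60% under DMSO, 1.66% under RAC1i and 1.58% under Combo. The libraries shared 15 to 23 kept cell barcodes by pairs, at most 0.305% of the smaller library. All 8 epithelial and ovarian tumor genes listed were present. In both treated libraries 5 of them (62.5%) were more than 1.5-fold below DMSO. Of all genes that reached 10 CPM, 36.9% were so in RAC1i and 35.4% in Combo. The others were also below DMSO, but within 1.5-fold. EPCAM was at 319.7 CPM with DMSO, 274 with RAC1i and 302 with Combo, and KRT8 at 537, 382 and 395 CPM. PAX8, a marker of this tumor type, was lower at 355 CPM with DMSO, 54.3 with RAC1i and 47.8 with Combo, as were MUC16 at 137, 43.3 and 37.6 CPM, WT1 at 32.0, 10.4 and 7.87 CPM, KRT7 at 1226, 486 and 601 CPM and MUC1 at 66.5, 25.8 and 23.3 CPM. The 12 genes of other cell types summed to 7.93, 18.0 and 17.8 CPM, and none reached 10 CPM. PTPRC and CD3E were at 0.0213 CPM or less, while CD14 was at 0.894 CPM with DMSO and at 7.62 or less in the treated libraries, 8.52-fold higher in RAC1i and 8.39-fold in Combo, and CD79A at 0.0653, 2.23 and 2.32 CPM, and their part in the results below was not tested. RAC1 was at 462, 589.7 and 577 CPM and EZH2 at 32.1, 12.4 and 15.2 CPM in the same order, and neither level measures how far a protein was inhibited.

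Between RAC1i and DMSO the 40 genes did not move as a block. A gene was called lower or higher where its CPM differed more than 1.5-fold and reached at least 10 CPM in the higher library, a limit that left out CDC25C alone (9.28 CPM in DMSO). In RAC1i 18 of the 39 remaining genes were lower (46.2%), 3 were higher (7.69%) and 18 stayed within 1.5-fold. Of all 8778 genes that reached 10 CPM, 36.9% were lower and 22.7% were higher. The share of higher members was below that of genes at large, while for lower members the order turned with the limit, since at 2-fold 20.5% of members and 24.6% of all genes were lower. The median log2 ratio of RAC1i over DMSO was -0.37 for the members and -0.20 for all genes, and single members ran from -1.79 (KIF20A) to 1.45 (CKS1B).

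**Figure D1:**
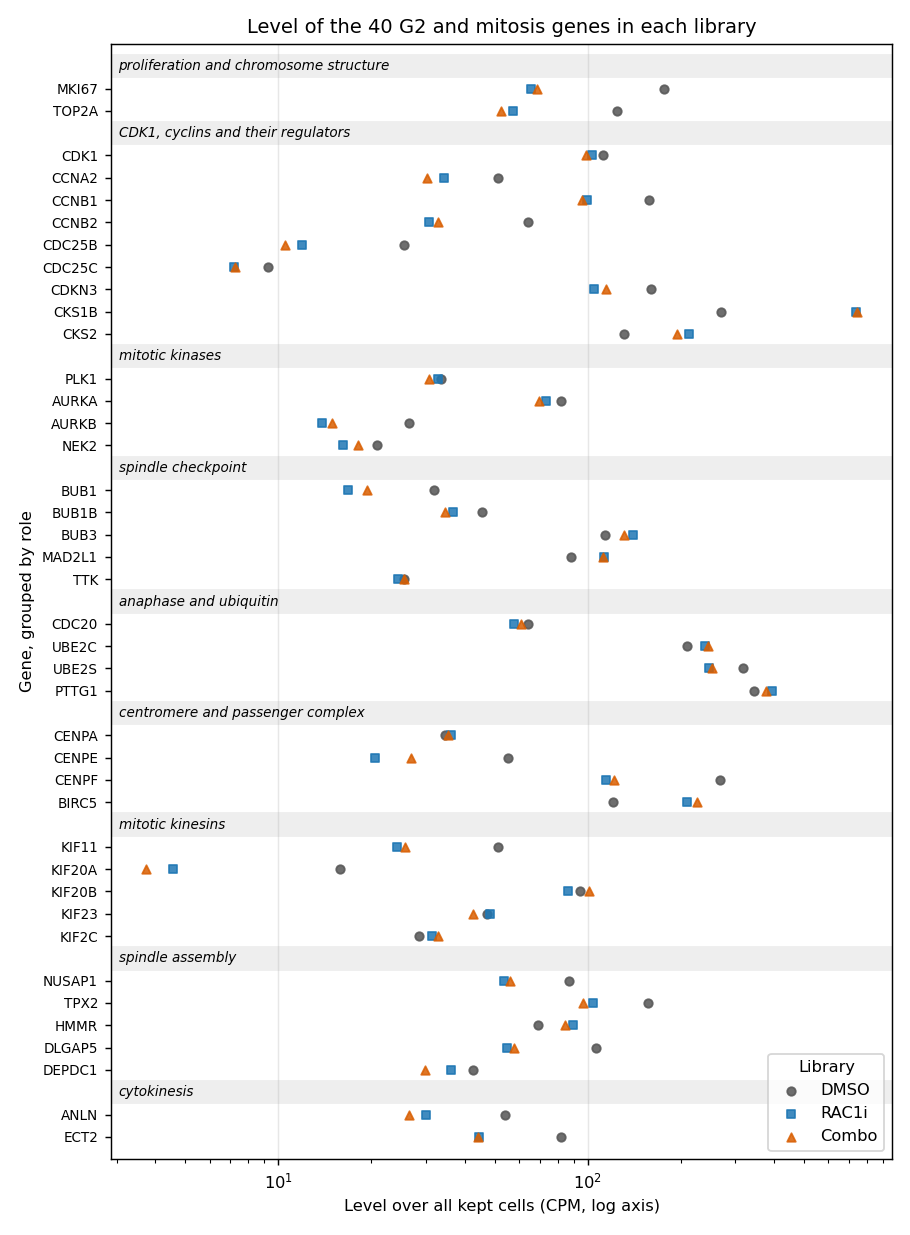
Level of each of the 40 genes over all kept cells of DMSO, RAC1i and Combo, in CPM on a log axis, with genes grouped by role. The RAC1i and Combo points of a gene lie close together, while the DMSO point lies to the right for genes such as MKI67, CENPF and KIF20A and to the left for CKS1B, CKS2 and BIRC5.

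In Combo 17 of 39 members were lower than in DMSO (43.6%) and 2 were higher (5.13%), beside 35.4% and 21.3% of 8745 genes. Both comparisons use the same DMSO library, so their likeness is not independent evidence. By these summed levels the 17 genes lower in Combo were all among the 18 lower in RAC1i, and CDKN3 was the other. With CPM averaged over cells instead, 20 were lower in Combo and 17 in RAC1i. CKS1B and BIRC5 were higher in both, and CKS2 was past 1.5-fold in RAC1i (1.61-fold) and just inside it in Combo (1.49-fold). CCNA2 (ratio 0.666), TPX2 (0.662) and CDKN3 (0.653) lay closest to the limit in RAC1i, and of the members that did not pass, UBE2S and NEK2 (0.775 each) and HMMR (1.29) came nearest to 1.5-fold in either direction. CCNA2, CDKN3 and TPX2 no longer passed under the TMM or DESeq2 scaling of the totals, which sets the median of all genes at -0.12 or -0.09.

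The proliferation marker MKI67 (Ki-67, chr10:128096659-128126423), whose protein coats mitotic chromosomes, was at 177 CPM in DMSO (95% interval 175 to 179), 65.6 in RAC1i (64.6 to 66.7) and 68.4 in Combo (67.3 to 69.5). Its ratio of RAC1i over DMSO was 0.371 (0.364 to 0.378). TOP2A, the topoisomerase that untangles replicated DNA, was at 124, 57.2 and 52.6 CPM. Both genes were thus highest in DMSO, and RAC1i and Combo lay close together.

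CDK1, the kinase itself, stayed near its DMSO level while the listed cyclins CCNA2, CCNB1 and CCNB2 were all lower. CDK1 was at 112, 103 and 98.7 CPM in DMSO, RAC1i and Combo, a ratio of 0.916 in RAC1i. Under other settings of scaling, cells and depth its log2 ratio reached -0.43 in RAC1i and -0.61, past 1.5-fold, in Combo. CCNB1 was at 158, 99.7 and 96.2 CPM, CCNB2 at 64.1, 30.6 and 32.7 CPM, and CCNA2 at 51.4, 34.2 and 30.3 CPM. The cyclin B2 transcript was therefore lower (ratio 0.477 in RAC1i) than the cyclin B1 transcript (0.629), relative to DMSO. CDC25B, a phosphatase that activates CDK1, was at 25.4, 11.9 and 10.5 CPM, and its relative CDC25C, under the minimum level, was at 9.28, 7.21 and 7.25 CPM. CDKN3, a phosphatase that acts on cyclin-dependent kinases, was at 160.2, 105 and 115 CPM.

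The small CDK-binding proteins CKS1B and CKS2 went the other way. CKS1B (chr1:154974653-154979251), which also serves the ubiquitin ligase that removes the inhibitor p27, was at 269.5 CPM in DMSO (267 to 272), 739 in RAC1i (735 to 742) and 742 in Combo (738 to 746), a ratio of 2.74 (2.71 to 2.77) in RAC1i. CKS2 was at 131, 212 and 195 CPM. CKS1B was the member with the largest ratio in both treated libraries. GENCODE 44 lists 7 pseudogenes of CKS1B, none of them counted in these files, and the part of reads from such copies in its level was not tested.

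The mitotic kinases were divided. PLK1, which acts from mitotic entry to cytokinesis, was at 33.6, 32.8 and 30.7 CPM, and AURKA, the kinase of centrosomes and spindle poles, at 81.8, 73.5 and 69.8 CPM. Their RAC1i ratios of 0.977 (0.945 to 1.01) and 0.898 (0.879 to 0.917) were far inside the 1.5-fold limit. AURKB, the kinase of the chromosomal passenger complex, was lower at 26.5, 13.8 and 14.9 CPM (ratio 0.520). NEK2, which separates centrosomes, was at 20.9, 16.2 and 18.1 CPM.

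Of the 5 spindle checkpoint genes, BUB1 alone was lower, at 31.8, 16.8 and 19.3 CPM in DMSO, RAC1i and Combo. BUB1B (BubR1) was at 45.5, 36.8 and 34.5 CPM, TTK (MPS1) at 25.4, 24.3 and 25.4 CPM, BUB3 at 114, 140.0 and 131 CPM and MAD2L1 at 88.1, 113 and 112 CPM. The last pair had ratios above 1 in RAC1i (1.22 and 1.28), without passing 1.5-fold. Across settings of scaling, cells and depth the log2 ratio of MAD2L1 ran from -0.01 to 0.47 in RAC1i and from -0.09 to 0.46 in Combo. That of BUB3 ran from 0.07 to 0.41 in RAC1i and from -0.08 to 0.32 in Combo. Exons of BUB1B overlap those of PAK6 on the same strand, so its count is uncertain.

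The genes that act with the APC/C at anaphase all stayed within 1.5-fold in both treated libraries. CDC20, its activator, was at 64.2, 57.8 and 60.8 CPM. UBE2C and UBE2S, the enzymes that begin and extend its ubiquitin chains, were at 209, 239 and 245 CPM and at 318, 247 and 252 CPM. PTTG1, or securin, its substrate, was at 346, 393 and 377 CPM. Summed, the 4 genes came to 938 CPM for DMSO, 936 for RAC1i and 935 for Combo, so by these levels their total was nearly level. Under other settings of scaling, cells and depth their log2 ratios in RAC1i moved. They ran from -0.30 to -0.04 for CDC20, 0.11 to 0.31 for UBE2C, -0.50 to -0.25 for UBE2S and -0.12 to 0.30 for PTTG1. The total was not taken under those settings. GENCODE 44 lists 5 pseudogenes of UBE2C and 2 of UBE2S.

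At the centromere the values spread widely. CENPE, a kinesin that moves chromosomes to the spindle equator, was at 55.2, 20.6 and 26.9 CPM, and CENPF, a large kinetochore protein, at 267, 115 and 122 CPM. CENPA, the histone variant that marks centromeres, was at 34.5, 36.2 and 35.3 CPM, a ratio of 1.05 (1.02 to 1.08) in RAC1i. Its exons overlap those of SLC35F6 on the same strand. BIRC5 (survivin), a partner of AURKB in the chromosomal passenger complex, was higher at 121, 209.8 and 225 CPM, so the transcripts of these partners lay on opposite sides of their DMSO levels.

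KIF20A (chr5:138178719-138187723), a kinesin of the central spindle, had the smallest ratio of the 40 genes. It was at 15.8 CPM in DMSO (15.2 to 16.4), 4.56 in RAC1i (4.29 to 4.84) and 3.74 in Combo (3.48 to 4.01), from 3144, 1071 and 795 UMIs. KIF11 (Eg5), which pushes spindle poles apart, was also lower at 51.2, 24.2 and 25.6 CPM. KIF23, KIF2C and KIF20B stayed within 1.5-fold. KIF23, another central spindle motor, was at 47.1, 48.5 and 42.6 CPM, KIF2C (MCAK), which takes microtubules apart, at 28.5, 31.5 and 32.9 CPM, and KIF20B at 94.4, 86.5 and 101 CPM.

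Among spindle assembly genes NUSAP1, TPX2 and DLGAP5 were lower. TPX2, the activator of AURKA on the spindle, was at 157, 104 and 96.4 CPM, DLGAP5, which binds and steadies kinetochore microtubules, at 106, 54.8 and 57.8 CPM, and NUSAP1, also a microtubule-binding protein, at 86.8, 53.7 and 56.0 CPM. NUSAP1 shares exon sequence with OIP5-AS1 on the same strand. HMMR, a microtubule-binding protein of the spindle pole, was at 69.3, 89.5 and 84.3 CPM, and DEPDC1 at 42.6, 36.2 and 29.8 CPM. Both cytokinesis genes were lower. ANLN, the scaffold of the cleavage furrow, was at 54.1, 30.1 and 26.4 CPM, and ECT2, which activates RhoA there, at 81.7, 44.5 and 44.1 CPM.

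**Figure D2:**
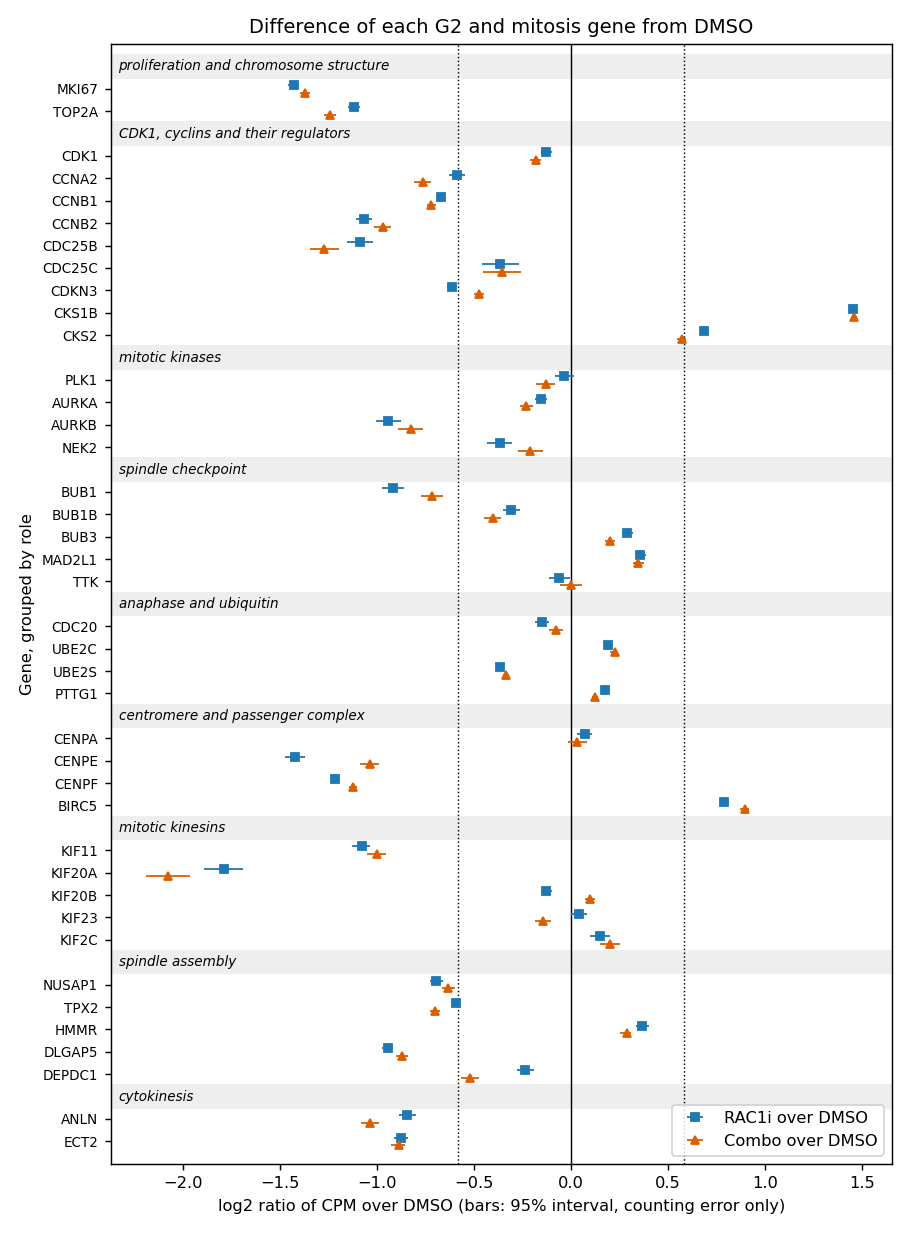
Log2 ratio of RAC1i over DMSO (squares) and of Combo over DMSO (triangles) for each of the 40 genes, grouped by role, with 95% intervals for counting error only and dotted lines at 1.5-fold. Points reach from KIF20A at -1.79 and -2.08 to CKS1B at 1.45 and 1.46, and the 4 anaphase genes stay between the dotted lines.

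Between Combo and RAC1i none of the 38 members that reached 10 CPM passed 1.5-fold in either direction. Among all 7443 genes 0.484% were lower and 0.175% higher, so a count of 0 in 38 is near the background. Log2 ratios of the members ran from -0.28 (DEPDC1) to 0.38 (CENPE), with 19 below and 19 above a ratio of 1. CENPE was at 20.6 CPM in RAC1i and 26.9 in Combo, a ratio of 1.31 (1.26 to 1.36). With 1 library each, it is not known whether this exceeds the difference between cultures treated alike.

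The 3 higher members nearly offset the 18 lower ones in the summed level. The 40 genes together were at 4000.3 CPM in DMSO (3992 to 4009), 3856 in RAC1i (3848 to 3864) and 3851 in Combo (3842 to 3859), a ratio of 0.964 (0.961 to 0.967) in RAC1i. The direction of this sum is not settled, since its log2 ratio of -0.05 was 0.03 under TMM and 0.06 under DESeq2 size factors. Without CKS1B the sum was 3731 CPM in DMSO and 3118 in RAC1i, a ratio of 0.836. CKS1B, CKS2 and BIRC5, taken after their values were seen, held 13.0% of the members' UMIs with DMSO, 30.1% with RAC1i and 30.2% with Combo. The makeup of the UMIs of this list thus moved more than their sum, with CKS1B the largest of these genes. In sums over a library, fewer cells in G2 and mitosis and less RNA per such cell cannot be told apart.

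Levels were also summed within cells that had at least 1 MKI67 UMI. There were 4861 such cells in DMSO (64.5%), 4941 in RAC1i (48.4%) and 4299 in Combo (52.2%), with median totals of 31919, 27443 and 31824 UMIs. MKI67 was left out there, since it chose the cells, and CDC25C reached 10 CPM (10.8 in DMSO), so the 39 members tested are not those tested over all cells. In the MKI67-positive cells 12 of 39 were lower in RAC1i (30.8%) and 3 higher (7.69%), beside 36.4% and 22.4% of all genes in these cells. In Combo 15 were lower (38.5%) and 3 higher, beside 35.0% and 21.0%. The share of lower members was thus near that of all genes in both, and in both its order turned with the limit. In RAC1i 48.7% of members and 45.2% of all genes were lower at 0.32 on the log2 scale. In Combo 12.8% of members and 22.4% of all genes were lower at 2-fold. None of 37 passed between Combo and RAC1i, where 0.548% and 0.174% of all genes did.

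TOP2A was at 153, 81.7 and 73.1 CPM within the MKI67-positive cells of DMSO, RAC1i and Combo. CENPE was at 67.4, 26.8 and 33.9 CPM and KIF20A at 19.5, 6.23 and 4.96 CPM. These thus stayed past 1.5-fold lower in the summed UMIs of positive cells. CDKN3 was at 182, 141 and 149 CPM and no longer passed. CCNA2, CCNB1, NUSAP1 and TPX2 also fell short of 1.5-fold in RAC1i there, with ratios of 0.701, 0.716, 0.685 and 0.719 that were not far from those over all cells (0.666, 0.629, 0.618 and 0.662). In Combo CCNA2, CCNB1 and TPX2 still passed. CKS1B was at 292, 781 and 793 CPM and BIRC5 at 141, 252 and 264 CPM. MKI67 chose these cells and was itself lower in treated cells, so a positive cell need not be the same kind of cell in each library.

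Of 35 members that reached 10 CPM in cells without an MKI67 UMI, 15 were higher in RAC1i (42.9%) and 3 lower (8.57%), beside 25.9% and 35.4% of all genes in these cells. In Combo 13 were higher (37.1%) and 2 lower (5.71%), beside 24.4% and 33.7%, and none of 34 passed between Combo and RAC1i, where 0.422% of all genes were lower and 0.286% higher. The lower ones in RAC1i were CCNB2, CDC25B and CDKN3, the last at 84.2, 50.4 and 56.8 CPM, with CDKN3 short of 1.5-fold in Combo. In these cells UBE2C was at 58.0 CPM in DMSO, 154 in RAC1i and 156 in Combo, and CENPA was at 8.05, 21.2 and 21.4 CPM. CKS1B was at 192, 675 and 654 CPM, beside 292, 781 and 793 CPM in MKI67-positive cells. PTTG1 was at 265, 260.4 and 251 CPM, close to DMSO in both. The median total of these cells was 12808, 15576 and 17732 UMIs. MKI67 was itself lower in treated cells, so a cell without its UMI need not be the same kind of cell in each library. The part of depth and of this choice of cells in the values was not tested. Of the UMIs of each other member, 82.3% (BUB3) to 95.9% (KIF20A) lay in MKI67-positive cells of DMSO, against 63.4% (CKS1B) to 87.1% (AURKA) in RAC1i. These cells held 77.8% of all UMIs in DMSO and 60% in RAC1i.

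Cells differed in depth, so for values per cell each was thinned at random to 5000 UMIs, leaving out 806, 1015 and 885 shallower cells. An MKI67 UMI was then found in 40.3% of the cells treated with DMSO (39.2 to 41.5), in 20.4% with RAC1i (19.6 to 21.3) and in 22.4% with Combo (21.4 to 23.4). No cell type in these libraries lacks the gene, so the share that free RNA gives was not measured. After the same thinning UBE2C was found in 42.4%, 56.1% and 56.9% of cells and CKS1B in 67.0%, 92.2% and 90.5%, while PLK1 was found in 13.0%, 11.2% and 10.9%. The share of cells lay on the same side of DMSO as the CPM for 39 of 40 members in RAC1i and 36 of 40 in Combo. PTTG1 was the exception in both, with a higher CPM and a lower share (72.5%, 66.6% and 66.4%), so no order is read from its share. In Combo BUB3, TTK and CENPA also differed in side, with intervals of the share that overlap those of DMSO.

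The load of a cell, its UMIs of the 39 members other than MKI67 after thinning, had a median of 15 in DMSO and 14 in both RAC1i and Combo. What differed was the share of cells at low, middle and high loads, while the variance divided by the mean was 10.7, 9.67 and 9.98. Loads of 0 to 4 were found in 11.0% of DMSO cells (10.2 to 11.7) against 2.55% in RAC1i and 2.88% in Combo, and loads of 10 to 19 in 33.5% against 54.0% and 55.3%. Loads of 40 or more were found in 9.07% (8.39 to 9.78), 6.24% (5.75 to 6.75) and 5.11% (4.62 to 5.64). Loads of 0 to 4 and loads of 40 or more were thus both less frequent in the treated libraries, although the highest load of a single cell was 92 with DMSO, against 180 under RAC1i and 146 under Combo. Before thinning, cells with loads of 0 to 4 had medians of 25888, 11753 and 14426 UMIs in DMSO, RAC1i and Combo.

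**Figure D3:**
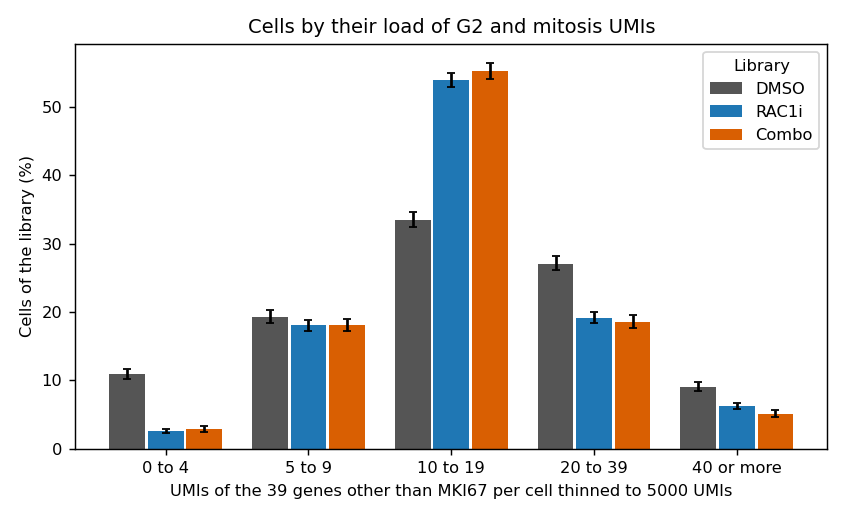
Percent of cells in each band of G2 and mitosis UMIs (39 genes without MKI67) per cell thinned to 5000 UMIs, for DMSO, RAC1i and Combo, with exact 95% intervals for counting error. DMSO cells are spread over the bands, while 54.0% of RAC1i and 55.3% of Combo cells lie at 10 to 19.

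This load includes CKS1B, which was higher in the treated libraries. The same load was also taken over the 19 members that stayed within 1.5-fold of DMSO in both treated libraries, which were chosen for that on these same libraries, so the result is a description. Loads of 0 to 4 of these genes were found in 30.5% of cells with DMSO, against 28.5% under RAC1i and 27.9% under Combo, and a load of 0 in 2.13% (143 cells), 0.576% (53 cells) and 0.544% (40 cells). Loads of 5 to 9 were found in 35.2%, 45.8% and 48.0%, and loads of 20 to 39 in 8.19%, 5.92% and 4.34%. Loads of 40 or more of these genes were rarer in DMSO, at 0.164% (0.0817 to 0.292), 1.01% (0.817 to 1.24) and 1.24% (0.997 to 1.52).

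To see each gene in cells rich and poor in the rest, cells were ranked for each gene by the load of the other 39, and the top 10% was set beside the lower 50%. The ranks are within a library, so the classes have different limits, and by the load of all 40 genes, CKS1B included, the top 10% began at 40 UMIs with DMSO, 30 with RAC1i and 28 with Combo. The median ratio of top 10% over lower 50% was 6.78 over the 40 genes with DMSO, 4.25 with RAC1i and 4.29 with Combo, so by this measure rich and poor cells lay closer in the treated libraries. By another measure they did not, since the share of a gene's UMIs held by the top 10% of cells had a median of 27.7%, 27.9% and 29.1% and was above DMSO for 23 of 40 genes and below it for 17, in RAC1i and in Combo alike. In RAC1i the median log2 ratio over DMSO was -0.33 in the top 10% and 0.03 in the lower 50%, and 28 of 40 genes had a smaller ratio in the top 10%. The same was so of 30 of 40 in Combo. Classes were made for these 40 genes only, so no share of all genes stands beside these counts. The top 10% began at lower loads in the treated libraries, and the part of this in the ratios was not tested. Cells between these classes are in neither. The RAC1i median over all kept cells, -0.37 across the 39 members tested, was lower than in both. It was taken without thinning and with the shallower cells included, unlike the values of the classes. These classes thus do not show where in a library a difference over all cells lay. The top 10% of DMSO cells had a median of 35429 UMIs before thinning and the lower 50% 27233, and in RAC1i these were 30747 and 19415.

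CENPA differed little between libraries in the rich cells and more in the poor ones. In the top 10% CENPA was at 126 CPM in DMSO, 117 in RAC1i and 110.5 in Combo, and in the lower 50% at 6.78, 19.4 and 16.6 CPM. UBE2C was likewise at 689, 674 and 684 CPM in the top 10% and at 59.0, 140 and 147 CPM in the lower 50%. Over all kept cells the RAC1i ratios of CENPA and UBE2C were 1.05 and 1.14. Cells between the classes also enter those ratios, and their levels are not given here. BUB1B was at 109.5, 70.2 and 65.3 CPM in the top 10% and at 17.7, 32.9 and 28.6 CPM in the lower 50%, on opposite sides of DMSO.

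HMMR and AURKA instead had larger ratios over DMSO in the rich cells than in the poor ones. HMMR was at 191 CPM in the top 10% of DMSO cells, 429 in RAC1i and 372 in Combo, and at 19, 27.9 and 31.1 CPM in the lower 50%. AURKA was at 300, 364 and 341 CPM in the top 10% and at 27.7, 18.2 and 19.5 CPM in the lower 50%. CDKN3, past 1.5-fold lower over all cells in RAC1i but not in Combo, was at 385, 388 and 395 CPM in the top 10%. In the lower 50% it was at 86.9, 47.8 and 59.8 CPM. The level of CDKN3 was therefore close in the top 10% of each library, classes that began at different loads. CDC25B, CENPE and KIF20A were low in the treated libraries at both ends, with RAC1i log2 ratios of -1.49, -1.32 and -1.60 in the top 10% and -0.84, -0.61 and -0.95 in the lower 50%.

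**Figure D4:**
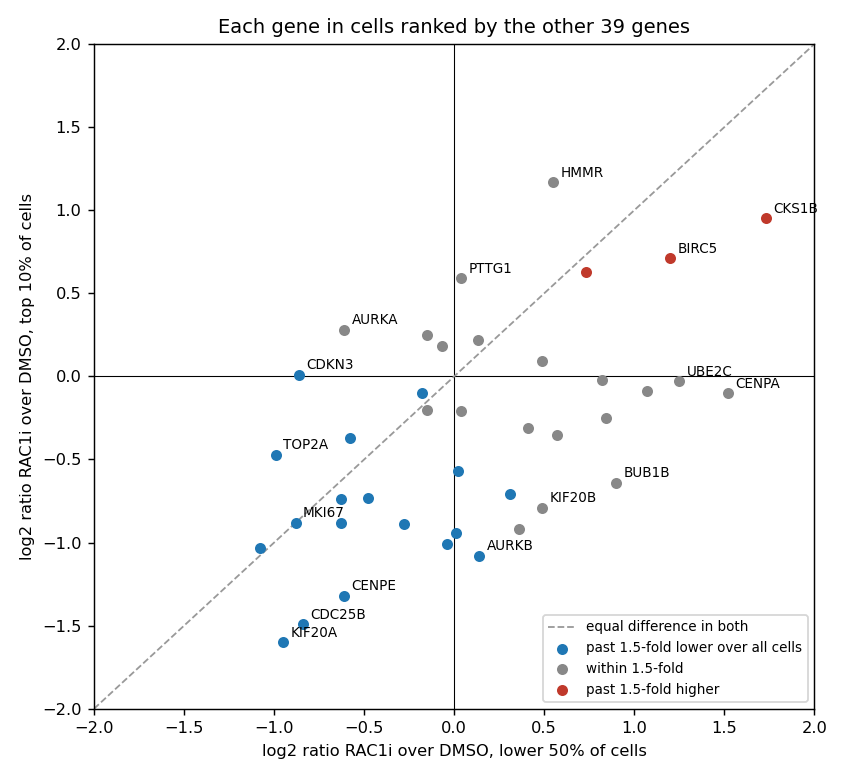
Log2 ratio of RAC1i over DMSO for each gene in the lower 50% of cells (x axis) and in the top 10% (y axis), with cells ranked by the load of the other 39 genes, and colors for the call over all cells. CENPA and UBE2C lie far right near 0 on the y axis (-0.10 and -0.03), while HMMR lies high at 1.17.

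The members that were lower tended to have more exons. Exons were counted on the representative transcript of GENCODE 44, and bins were set after the values were seen. Of 17 members with 1 to 9 exons, 5 were lower in RAC1i (29.4%) and 3 higher (17.6%), with a median log2 ratio of -0.13. Of 10 members with 10 to 19 exons 6 were lower (60%) and none higher (median -0.65), and of 12 with 20 or more 7 were lower (58.3%) and none higher (median -0.86). Of protein-coding genes at large, 32.6%, 39.5% and 45.0% were lower in these bins and 26.4%, 19.7% and 13.5% higher, so the share of lower members was near the background in the first bin, and higher genes were also fewer with more exons at large. The medians of protein-coding genes were -0.09, -0.28 and -0.44, so the order was shared and the steps were smaller. Across the 39 members Spearman's rho of log2 ratio and exon number was -0.54, against -0.13 across 8447 protein-coding genes. The rho of log2 ratio across the members was -0.41 with gene length and -0.40 with transcript length. Genes are not independent replicates and the ratios share their libraries, so these are descriptions. CKS1B and CKS2 have 3 exons and BIRC5 has 4, while CENPE has 49 and TOP2A 35. KIF20B with 33 exons, KIF23 with 24 and TTK with 22 stayed within 1.5-fold.

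**Figure D5:**
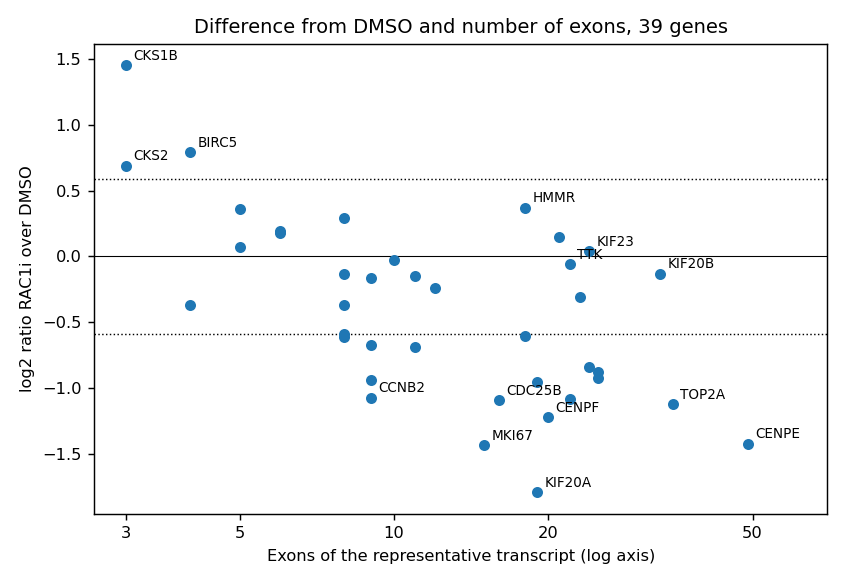
Log2 ratio of RAC1i over DMSO for the 39 genes that reached 10 CPM against the number of exons on a log axis, with dotted lines at 1.5-fold. The 3 genes above the upper line have 3 or 4 exons, and genes with 20 or more exons lie on both sides of the lower line.

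The promoters of the members were searched for both elements named above. Windows from 250 bases before to 50 after the transcript start were taken from RefSeq (GRCh38.p14) and matched 34 of the 40 members. The missing members were AURKA, BUB3, TTK, UBE2C, BIRC5 and TPX2. The CHR was searched as TTTGAA or TTCGAA and the CCAAT box as CCAAT, each on both strands. Of the 34 members 25 had a CHR in a window (73.5%), against 19.5% of 27305 genes, and 30 had a CCAAT box (88.2%) against 39.7%. A CHR starting within 60 bases before the start was found for 15 members (44.1%) against 3.99% of genes. It was present in 5 of 17 members lower in RAC1i, in both matched members that were higher and in 8 of 15 that stayed within 1.5-fold.

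The 120 bases before the start are shown for the 6 members with the largest log2 ratios in RAC1i in either direction among those with such a CHR, to set the promoters of higher and lower members side by side. ANLN was passed over because over 30 of these bases lie in its annotated exon. Sequences read 5′ to 3′ on the strand of the gene, and capitals mark CHR and CCAAT matches on either strand.
CKS1B: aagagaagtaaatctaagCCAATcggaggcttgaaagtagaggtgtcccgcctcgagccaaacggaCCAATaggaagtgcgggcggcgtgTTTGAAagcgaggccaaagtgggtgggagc
CKS2: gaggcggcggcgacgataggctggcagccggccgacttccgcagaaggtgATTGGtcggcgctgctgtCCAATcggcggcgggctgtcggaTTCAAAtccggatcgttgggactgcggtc
CCNB2: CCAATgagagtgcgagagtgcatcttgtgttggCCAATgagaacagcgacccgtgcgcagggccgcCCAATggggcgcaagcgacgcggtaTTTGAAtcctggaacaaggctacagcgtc
MKI67: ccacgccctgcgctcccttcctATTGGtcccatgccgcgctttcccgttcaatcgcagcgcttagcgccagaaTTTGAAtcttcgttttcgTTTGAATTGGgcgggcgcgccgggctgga
CDC25B: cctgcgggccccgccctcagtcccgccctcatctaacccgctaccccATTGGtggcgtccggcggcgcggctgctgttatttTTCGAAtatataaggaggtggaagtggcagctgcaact
KIF11: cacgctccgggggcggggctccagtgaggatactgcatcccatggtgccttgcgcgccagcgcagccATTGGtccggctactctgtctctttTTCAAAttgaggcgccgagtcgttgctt

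On GRCh38.p14 these stretches are chr1:154974561-154974680 on the plus strand for CKS1B, chr9:89311075-89311194 plus for CKS2, chr15:59105026-59105145 plus for CCNB2, chr10:128126424-128126543 minus for MKI67, chr20:3796190-3796309 plus for CDC25B and chr10:92593010-92593129 plus for KIF11. The MKI67 and CKS2 stretches lie outside the annotated genes, those of CKS1B and CCNB2 reach 28 and 20 bases into an annotated first exon, and those of CDC25B and KIF11 precede a start within the annotated gene, with 19 bases of the CDC25B stretch in an annotated exon. The CHR begins 30 bases before the start in CKS1B and 29 before it in CKS2 and in CCNB2, and each has a CCAAT box 52 or 54 bases before the start. The log2 ratios of CKS1B and CKS2 were 1.45 and 0.69, and that of CCNB2 was -1.07. KIF11, at -1.08, has a CHR 28 and a CCAAT box 53 bases before the start. DEPDC1, at -0.24, has a CHR at 27 and a CCAAT box at 52. The part of this layout in the ratios was not tested. MKI67 has a CHR at 47 and at 29 bases before the start, the latter overlapping a CCAAT box by 1 base. A match of letters is a description and shows no binding, and PLK1, with a ratio of 0.977, also has a CHR 29 bases before its start.

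Of the regulators that bind such promoters, FOXM1 was at 39.1, 31.3 and 26.9 CPM and MYBL2 at 165, 142 and 137 CPM in DMSO, RAC1i and Combo, all within 1.5-fold. LIN9, a subunit of the complex in which MYBL2 acts, was higher at 12.5, 33.8 and 32.4 CPM, as were NFYC, a subunit of NF-Y, at 28.1, 68.0 and 67.5 CPM and the repressor E2F4 at 33.2, 69.6 and 72.7 CPM. E2F1 was lower at 52.5, 14.7 and 17.6 CPM, as were the pocket proteins RBL2 at 11.8, 3.97 and 4.55 CPM and RBL1 at 11.8, 5.82 and 6.67 CPM. In total, 5 of 17 regulators were lower (29.4%) and 3 higher (17.6%) in RAC1i, below the 36.9% and 22.7% of all genes, with a median log2 ratio of -0.32. The CDK inhibitor CDKN1A (p21) was at 0.422, 5.79 and 9.83 CPM, under the minimum level in each library.

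Another 56 mitotic genes, listed by function and not in the group of 40, were also divided. Of 53 that reached 10 CPM in RAC1i or DMSO 26 were lower (49.1%) and 7 higher (13.2%) in RAC1i, beside 36.9% and 22.7% of all genes, with a median log2 ratio of -0.56. The largest falls were of SPC25, a kinetochore subunit, at 18.9, 3.49 and 4.94 CPM, of CKAP2L, a spindle protein, at 13.1, 3.04 and 3.80 CPM, and of LMNB1, the lamin B1 gene, at 69.6, 17.3 and 18.3 CPM. The largest rises were of CDCA5 (sororin), which protects cohesion, at 33.4, 92.8 and 91.9 CPM, of SKA2, a kinetochore protein, at 136, 268 and 253 CPM, and of G2E3 at 8.68, 15.9 and 14.7 CPM. Genes of this list were thus also found on both sides of their DMSO levels.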

How the data were processed

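The deposited values are counts of UMIs per gene and cell barcode, made by the authors with Cell Ranger (4.0.0 in the submitters' processing notes) on GRCh38 from 10x Genomics 3′ v3.1 libraries, with no normalization and no later filter. The cell limits are those of the study's methods (complexity is log10 genes over log10 UMIs). Levels are sums of UMIs over kept cells divided by the total of the library. Intervals at 95% are exact Poisson for a CPM, exact conditional for a ratio and Clopper-Pearson for a share. They cover counting error only. No doublet caller was run. Leaving out the 8% of cells with the most UMIs was an alternative. Genes were placed with GENCODE 44 (GRCh38), which held all 40 members. Python 3.11.15, NumPy 2.4.6, SciPy 1.17.1, edgeR 4.0.16 (TMM) and DESeq2 1.42.0 (size factors) were used, and the calculations were tested on simulated data. All 40 members are named, and of the mitotic, regulator, APC/C and replication lists the 3 largest rises and falls in RAC1i over DMSO among genes with at least 10 CPM, with FOXM1, MYBL2, CDKN1A, RAC1, EZH2 and identity genes. CD3E, CD14, CD79A, KRT7 and MUC1 were named after their values were seen. The members, lists and rules were chosen with earlier results of these data known. The exon bins, the load over 19 genes and the ranking by distinct genes were added after seeing the values.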

Additional observations from a re-analysis of the deposited data

How the results depend on the processing

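No paired analysis was possible because each condition was 1 library. With 1 library per condition no replicate could be left out, and the depth of the libraries limits counting error only, not the spread between cultures. Of the members past 1.5-fold, none changed direction under the 8 settings of scaling, cells and depth, and 17 of 168 values in RAC1i and 4 of 152 in Combo were no longer past 1.5-fold. These belonged to CCNA2, CCNB1, CDKN3, CKS2, NUSAP1 and TPX2 in RAC1i and to NUSAP1 and TPX2 in Combo. Other members passed 1.5-fold in Combo only under a setting, with log2 ratios reaching -0.61 (CDK1), -0.69 (CDKN3 and DEPDC1), -0.70 (CDC25C) and 0.69 (CKS2). The count of lower members ran from 13 under DESeq2 size factors to 18 in RAC1i. In Combo it ran from 15 under DESeq2 size factors to 20 as a mean over cells.

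At 2-fold 8 of 39 members were lower (20.5%) and 1 higher (2.56%) in RAC1i, beside 24.6% and 13.1% of all genes, and 8 and 1 in Combo, beside 22.8% and 11.8%, so that lower members were no longer above the share of all genes. At a limit of 0.32 on the log2 scale 20 were lower and 5 higher in RAC1i (45.7% and 31.0% of all genes), 21 and 4 in Combo (44.8% and 30.2%), and 0 and 1 between Combo and RAC1i (5.08% and 4.66%). In MKI67-positive cells 2-fold left 5 lower and 1 higher in RAC1i (23.8% and 12.6% of all genes) and in Combo (22.4% and 11.5%). The limit of 0.32 there gave 19 lower and 7 higher in RAC1i (45.2% and 30.9%), 19 and 5 in Combo (44.5% and 30.2%), and 1 and 1 between Combo and RAC1i (5.21% and 4.51%). Cells with at least 2 MKI67 UMIs gave 12 lower and 5 higher in RAC1i (35.3% and 22.5% of all genes). In Combo they gave 13 of 39 lower, or 33.3%, and 4 higher (34.1% and 21.3% of all genes). Cells with an MKI67 UMI after thinning gave 12 and 5 in RAC1i (35.3% and 21.9%) and 14 and 5 in Combo (34.6% and 20.7%).

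The log2 ratio of the summed level (-0.05 in RAC1i and in Combo, 0.00 between them) was, in RAC1i and Combo, -0.12 and -0.12 without mitochondrial genes, -0.09 and -0.09 at a mitochondrial limit of 10%, -0.02 and 0.01 over every deposited barcode, -0.11 and -0.13 thinned to 5000 UMIs, -0.17 and -0.20 as a mean over cells, -0.05 and -0.10 without the deepest 8% of cells, 0.03 and 0.04 under TMM, and 0.06 and 0.06 under DESeq2 size factors. Between Combo and RAC1i it ran from -0.05 without the deepest cells through -0.03 thinned or as a mean over cells, 0.00 under DESeq2 size factors and 0.01 under TMM to 0.02 over every barcode.

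The share of cells with an MKI67 UMI in DMSO, RAC1i and Combo was 25.3%, 12.4% and 13.5% at 2500 UMIs, 57.8%, 34.2% and 34.3% at 10000, and 64.5%, 48.4% and 52.2% without thinning, with DMSO highest in each. It was 41.9% in DMSO and 21.3% in RAC1i at a mitochondrial limit of 10%, 38.4%, 21.3% and 21.3% without the deepest cells, and 21.5% in RAC1i with another random seed. Ranking cells by distinct genes gave medians of -0.26 in the top 10% and 0.04 in the lower 50% for RAC1i. The causes of these shifts were not tested, beyond the fewer cells or UMIs that a setting uses.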

Other observations

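The subunits of the APC/C, the ubiquitin ligase that several members serve, had a median log2 ratio of RAC1i over DMSO of 0.00. Of 12 that reached 10 CPM, ANAPC5 alone was lower (8.33%) at 85.9 CPM in DMSO, 30.3 in RAC1i and 36.0 in Combo, and 2 were higher (16.7%), ANAPC13 at 42.3, 91.3 and 83.0 CPM and CDC26 at 52.9, 101 and 91.5 CPM. Next in size but within 1.5-fold were CDC27 at 48.7, 37.2 and 36.0 CPM, ANAPC16 at 188, 144 and 165 CPM and CDC23 at 21.7, 30.2 and 32.3 CPM. Genes of DNA replication, which act before G2, had 17 of 24 lower (70.8%) and 1 higher (4.17%) in RAC1i, beside 36.9% and 22.7% of all genes, with a median of -0.99. The largest falls were of CDC45, a helicase cofactor, at 25.3, 5.15 and 6.10 CPM, of MCM5 at 26.1, 7.36 and 8.98 CPM and of MCM4 at 61.0, 17.4 and 16.7 CPM, and CDC6, which loads the helicase, was at 25.1, 39.7 and 37.6 CPM, higher in RAC1i and just short of 1.5-fold in Combo. RFC2 at 32.3, 47.7 and 52.1 CPM was within 1.5-fold in RAC1i and higher in Combo (1.61-fold), and MCM7 at 96.1, 119 and 121 CPM was within it in both. No difference between lists was tested.

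Barcodes left out for over 20% mitochondrial UMIs also held transcripts of the 40 genes. There were 1592 such barcodes in DMSO, 534 in RAC1i and 508 in Combo, and scaled to 1e6 UMIs of nuclear genes the members were at 3506 (95% interval 3437 to 3576), 2940 (2799 to 3086) and 2891 (2755 to 3031). In the kept cells these values were 4262, 3927 and 3917.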
